A study of Homo sapiens with 4 samples.

Results

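The comparison set LX-2 cells treated with TGF-β together with RVX-208 against untreated control cells, and so describes which part of the TGF-β state was present while RVX-208 was there. Its members were all genes with at least 1 scaled count per 1000000 counts (CPM) in at least 1 of the 2 libraries, 15345 of the 63241 genes in the deposited table. LX-2 is an immortalised human hepatic stellate cell line, and the study holds 4 libraries, 1 per group. Every culture was starved for 24 h in medium with 0.5% serum. The control then received no TGF-β, and the sources used here do not say how long it was kept or whether it received vehicle. The TGF-β library, whose label names DMSO, came from cells given 20 ng/mL TGF-β for 24 h, and the RVX-208 library from cells given the same TGF-β with 5 µM RVX-208. A library with TGF-β and 5 µM BDS4 entered the scaling only. None of the 4 libraries had RVX-208 without TGF-β, so differences from the control that came from TGF-β and from RVX-208 cannot be told apart. The deposited column names end in replicate-like numbers that differ between the control, TGF-β and RVX-208 libraries and have no stated meaning. With 1 library per group there was no replicate check and no p-value. Each ratio carries a 95% interval, given in brackets, which covers counting error only.

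Stellate cells are the liver pericytes that become matrix-producing myofibroblasts in fibrosis, and TGF-β is the main cytokine that drives them there. TGF-β binds a pair of receptor kinases, which phosphorylate SMAD2 and SMAD3. These enter the nucleus with SMAD4 and act with other factors, among them AP-1, at genes for matrix proteins, cytokines and the inhibitors that shut the pathway down again. RVX-208 (apabetalone) blocks BET proteins, which bind acetylated histones and recruit the elongation kinase P-TEFb to active genes, and it prefers their second bromodomain.

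Library totals ran from 17022369 counts (RVX-208) to 22503094 (control), and 3 counts corresponded to 0.178 and 0.126 CPM in these 2 libraries. Of the stellate cell markers 12 of 15 passed the filter. The mesenchymal markers VIM and COL1A1 stood at 3290 and 2075 CPM in the control, but DES and LRAT, which mark stellate cells in tissue, were at 0 counts in the control and RVX-208 libraries. ALB had 0.0837 and 0.0594 CPM in these 2, and of the marker lists for other liver cells hepatocytes had 1 of 9 genes past the filter, lymphocytes 0 of 8, endothelium 3 of 8, macrophages 3 of 8 and cholangiocytes or epithelium 4 of 8.

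The largest ratios to control among direct TGF-β targets with at least 10 CPM were those of PMEPA1, JAG1, IL11 and JUNB, and the DNA upstream of their start sites is shown because these genes rose together. PMEPA1 encodes a membrane protein that sequesters SMADs, JAG1 a Notch ligand, IL11 a cytokine that acts on fibroblasts and stellate cells, and JUNB an AP-1 subunit. The sequences are the 250 bases before the RefSeq start (GRCh38.p14), printed 5′ to 3′ on the gene's strand, and capitals mark matches on either strand to CAGAC (the SMAD box), GTCTAGAC (the palindromic SMAD element) or TGANTCA (an AP-1 site). They lie at chr20:57711473-57711722 on the minus strand (PMEPA1), chr20:10674000-10674249 on the minus strand (JAG1), chr19:55370464-55370713 on the minus strand (IL11) and chr19:12791236-12791485 on the plus strand (JUNB).
PMEPA1: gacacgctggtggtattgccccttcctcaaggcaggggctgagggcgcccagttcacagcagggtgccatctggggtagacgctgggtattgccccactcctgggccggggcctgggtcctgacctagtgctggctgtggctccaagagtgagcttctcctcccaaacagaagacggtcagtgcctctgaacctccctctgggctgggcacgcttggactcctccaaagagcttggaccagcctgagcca
JAG1: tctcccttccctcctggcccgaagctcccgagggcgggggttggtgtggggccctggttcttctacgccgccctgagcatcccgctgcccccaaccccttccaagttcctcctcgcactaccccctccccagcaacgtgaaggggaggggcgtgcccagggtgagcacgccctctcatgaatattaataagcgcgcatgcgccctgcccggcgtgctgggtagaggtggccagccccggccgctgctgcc
IL11: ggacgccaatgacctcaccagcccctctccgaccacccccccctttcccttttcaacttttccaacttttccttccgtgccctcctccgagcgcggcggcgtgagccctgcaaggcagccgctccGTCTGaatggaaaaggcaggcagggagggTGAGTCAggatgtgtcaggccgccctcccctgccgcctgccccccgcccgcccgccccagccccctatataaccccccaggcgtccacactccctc
JUNB: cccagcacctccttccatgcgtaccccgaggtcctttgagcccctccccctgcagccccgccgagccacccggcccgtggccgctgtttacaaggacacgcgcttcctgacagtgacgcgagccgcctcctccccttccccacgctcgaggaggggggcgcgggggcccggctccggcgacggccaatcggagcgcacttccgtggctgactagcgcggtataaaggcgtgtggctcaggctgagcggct
Only the IL11 window held a match, with 1 SMAD box and 1 AP-1 site, and the windows of PMEPA1, JAG1 and JUNB held none of the 3 motifs. Over all 35116 RefSeq promoters of this length, 38% held CAGAC, 0.182% GTCTAGAC and 6.57% TGANTCA. Of the 18 direct targets higher in the comparison, 14 had a promoter in the table, of which 7 held CAGAC, 1 TGANTCA and 0 GTCTAGAC. These matches describe letters in a short window and say nothing of sites elsewhere in the gene.

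Calls follow a rule of size: a 2-fold or greater ratio to the control, up or down, with a counting interval that excluded 1. By this rule 800 genes were higher with TGF-β and RVX-208 than in the control (5.21% of the 15345) and 1065 were lower (6.94%), 12.2% in all. These 5.21% and 6.94% are the background for the share of genes called in each gene list. The median log2 ratio over all 15345 genes was 0.00, with the 5th and 95th percentiles at -1.18 and 1, and 193 genes were higher and 281 lower by at least 4-fold. Scaling by total counts in place of TMM factors moved every log2 ratio by -0.10, and the counts to 648 higher and 1284 lower. Among the calls, 556 of the higher and 804 of the lower genes were protein-coding. The lowest ratio of all shows one limit of the table: BLOC1S5-TXNDC5, a read-through transcript that shares exons with TXNDC5, had 7471 counts in the control and 0 with RVX-208, while TXNDC5 went from 2825 to 7831. Of the called genes, 155 higher and 214 lower ones share exon bases with a same-strand neighbour, and 99 and 131 of these calls ended once such neighbours were summed.

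TGF-β alone, set against the same control library, gave 805 genes higher (5.24% of 15356) and 669 lower (4.36%). Both comparisons share the control, so an agreement between them is not independent. Of the 800 genes higher with RVX-208 present, 569 were not called by the same rule against TGF-β alone. Another 204 lay at least 2-fold above TGF-β alone (1.33% of all genes tested) and 27 at least 2-fold below. Of the 1065 lower genes, 648 were not called against TGF-β alone, 408 lay at least 2-fold below it (2.66%) and 9 above. Genes not called lay within 2-fold or had a counting interval that included 1, as for MSTN (2.54-fold lower, 0.654 to 14.4). The direct comparison of TGF-β with RVX-208 against TGF-β alone had 431 genes higher (2.83% of 15230) and 790 lower (5.19%).

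Among the ligands and latency proteins, which store TGF-β in the matrix, 3 of 20 genes were higher than control and 3 lower (15% each way). The median log2 ratio was -0.10, a sign that turned with a 5 CPM filter and with overlapping genes summed. NRROS, among the lower genes with 38 counts in the control and 6 with RVX-208, shares exons with a neighbour. Its call ended with overlapping genes summed, which left 2 lower. TGFB1, the main ligand, stood at 213 CPM in the control, 827 with TGF-β and 831 with TGF-β and RVX-208, 3.91-fold above control (3.78 to 4.04). It overlaps HNRNPUL1, an abundant gene on the opposite strand, and the sources used here do not give the strand setting of the counting. LTBP2, a fibrillin-like matrix protein, lay between the other levels, at 18, 212 and 69.4 CPM in the same order. INHBA, the activin A subunit, was 2.46-fold higher than control (2.25 to 2.69). TGFB2 shares exons with a neighbour and was 2.01-fold lower (1.84 to 2.18), at 88.4, 133 and 44.1 CPM, a call that sits at the edge of the rule. MSTN, the muscle growth inhibitor myostatin, went from 177 counts to 10 with TGF-β and 3 with RVX-208 added.

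The receptors and SMADs, the kinases and signal carriers of the pathway, had 1 of 18 genes higher (5.56%, near the share of all genes) and 3 lower (16.7%), with a median of -0.02. The receptor kinase genes TGFBR1 (63.2 and 64.0 CPM) and TGFBR2 (123 and 110 CPM) and the SMAD genes SMAD2 (92.7 and 95.6 CPM) and SMAD4 (83.6 and 86.9 CPM) lay close together in control and RVX-208 libraries. SMAD3 stood at 221 CPM in the control, 196 with TGF-β and 118 with RVX-208, 1.87-fold lower than control (1.78 to 1.97), under the 2-fold rule but past it with total-count scaling. The 1 higher gene was BMPR2, the type II BMP receptor, at 128, 466 and 523 CPM (4.07-fold, 3.91 to 4.24). The 3 lower ones were SMAD9, TGFBR3 (betaglycan, a co-receptor) and ACVRL1, and all were at or under 17.2 CPM.

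Feedback inhibitors had 5 of 20 genes higher (25%) and 3 lower (15%), with a median of 0.51. PMEPA1 had 138 counts in the control, 7832 with TGF-β and 6012 with RVX-208, that is 5.78, 355 and 357 CPM, and was 61.8-fold above control (52.2 to 73.7). SMAD7, which blocks the activated receptor, stood at 25.1, 92.9 and 131 CPM (5.22-fold over control, 4.77 to 5.73). SKIL, a SMAD corepressor, stood at 25.9, 75.6 and 109 CPM. The levels of these 3 genes with RVX-208 were at or above those with TGF-β alone. SKI, another corepressor, and LDLRAD4, a relative of PMEPA1, were 2.02-fold and 2.77-fold higher, the first call ending with total-count scaling. GREM1, a secreted BMP antagonist, went the other way, at 2.30 CPM in the control, 9.65 with TGF-β and 1.07 with RVX-208.

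Direct targets of TGF-β and SMADs were the list with the highest median: 18 of 31 genes were higher than control (58.1%) and 1 lower (3.23%), with a median log2 ratio of 1.67. TGF-β alone had 22 of 32 higher, 0 lower and a median of 1.70 against the same control. IL11 stood at 65.7, 319 and 627 CPM, 9.55-fold above control (9.05 to 10.1) and 1.97-fold above TGF-β alone (1.91 to 2.03). Its level with RVX-208 lay above that with TGF-β alone by more than counting error, but by less than 2-fold.

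JUNB stood at 27.6, 195 and 226 CPM (8.19-fold over control, 7.54 to 8.91), and BHLHE40, a repressor of the basic helix-loop-helix family, was 6.64-fold higher (6.38 to 6.90). CCN2 (connective tissue growth factor) stood at 161, 545 and 612 CPM, and TGFBI, a matrix adhesion protein, at 486, 2347 and 2020 CPM. JAG1 stood at 21.9, 358 and 276 CPM, 12.6-fold above control (11.5 to 13.8), and its Notch target HES1 at 9.51, 71.1 and 49.7 CPM. All 6 genes were within 2-fold of TGF-β alone. FOXS1, a forkhead factor, had 1 count in the control, 268 with TGF-β and 64 with RVX-208, and NOX4, an NADPH oxidase, had 1, 56 and 19, so their ratios to control rest on a single count (FOXS1 90.8-fold, 15.7 to 3641). SNAI1, the epithelial-mesenchymal transition factor SNAIL, stood at 4.86, 20.3 and 8.97 CPM, 1.85-fold above control (1.44 to 2.37) and 2.27-fold under TGF-β alone (1.88 to 2.74). The 1 lower gene was ADAM12.

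BMP targets and ID genes had 1 of 11 genes higher (9.09%) and 4 lower (36.4%), with a median of -0.54. ATOH8, a BMP-responsive factor, had 187 counts in the control, 16 with TGF-β and 8 with RVX-208. ID1 and ID2, inhibitors of differentiation, stood at 50 and 9.68 CPM with RVX-208 against 72.7 and 16.7 CPM in the control, neither past the rule.

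**Figure D1:**
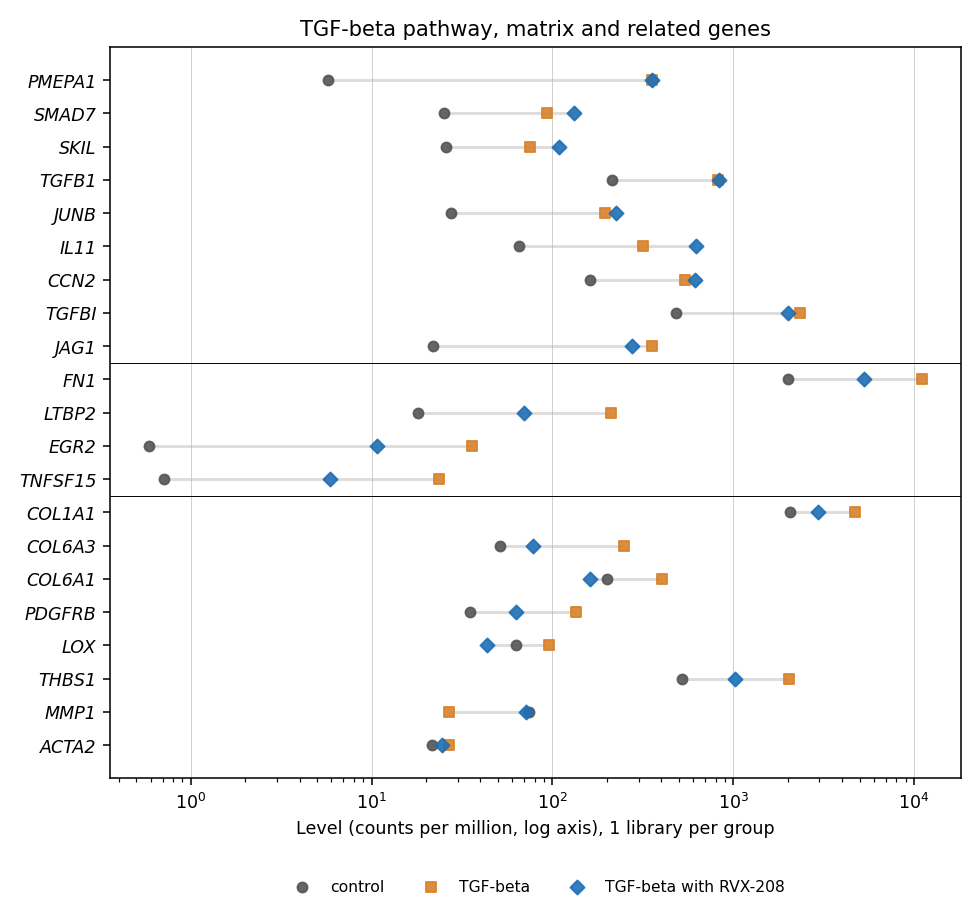
Levels in CPM (log axis) of 21 genes in the control (grey circles), TGF-β (orange squares) and TGF-β with RVX-208 (blue diamonds) libraries, 1 library each. The upper group, from PMEPA1 to JAG1, has the blue and orange symbols within 2-fold of each other, with IL11 the farthest apart (1.97-fold). The middle group has the blue symbol between the others, and in the lower group the blue symbol lies under the 2-fold rule against the grey one.

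Matrix genes divided. Of 8 fibrillar collagens, the rope-like collagens of scar, 3 were higher (37.5%) and 1 lower (12.5%) than control, with a median of 0.51, against 5 higher, 0 lower and a median of 1.28 with TGF-β alone. COL1A1, the abundant chain of type I collagen, stood at 2075 CPM in the control, 4705 with TGF-β and 2935 with RVX-208. That is 1.41-fold above control (1.40 to 1.43), under the 2-fold rule, and 1.60-fold under TGF-β alone (1.59 to 1.62). COL5A1, a chain of type V collagen, stood at 461, 1197 and 999 CPM (2.17-fold over control, 2.12 to 2.22), and COL27A1 at 22.1, 135 and 81.0 CPM. The remaining higher gene, COL11A2, had only 16 counts in the control and 23 with RVX-208 (2.04-fold, 1.03 to 4.13). Its call ended with total-count scaling. COL3A1, the main chain of type III collagen, had few counts, 161 in the control, 163 with TGF-β and 10 with RVX-208, and was 11.3-fold lower than control (6.01 to 24.1). It shares exons with a neighbour, and the call held with overlapping genes summed. COL1A2, the partner chain of COL1A1, was at only 2.97, 8.20 and 1.60 CPM.

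Basement membrane genes had 3 of 21 higher (14.3%) and 2 lower (9.52%), with a median of 0.21. COL4A1 and COL4A2, the main type IV collagen chains, stayed near their levels with TGF-β alone, at 196, 928 and 813 CPM for COL4A1 (4.15-fold over control, 4.01 to 4.29) and 717, 2024 and 1774 CPM for COL4A2. COL18A1, the precursor of endostatin, was higher only with RVX-208 in these 3 libraries: 27 counts in the control, 36 with TGF-β and 247 with RVX-208, 13.0-fold above control (8.71 to 20.1). Its level remained low, at 14.7 CPM. The laminin chain gene LAMA3 was 2.63-fold lower (2.13 to 3.26).

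Other collagens had 0 of 11 genes higher and 2 lower (18.2%), with a median of -0.53, while TGF-β alone had 5 higher, 1 lower and a median of 0.50. The type VI collagen genes COL6A1 and COL6A3, which encode chains of beaded microfibrils, stood at 201 and 51.6 CPM in the control, 403 and 250 with TGF-β, and 162 and 78.5 with RVX-208. Neither was called against the control, and against TGF-β alone they were 2.48-fold (2.38 to 2.59) and 3.18-fold lower (3.00 to 3.38). COL12A1, a fibril-associated collagen, was 2.09-fold lower than control (2.02 to 2.16), at 551, 345 and 263 CPM.

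Matrix glycoproteins and proteoglycans had 3 of 26 genes higher and 3 lower (11.5% each way), with a median of 0.04. FN1 (fibronectin) stood at 2001, 11140 and 5299 CPM, 2.65-fold above control (2.62 to 2.68) and 2.10-fold under TGF-β alone (2.09 to 2.12). THBS1 (thrombospondin 1, an activator of latent TGF-β) stood at 524, 2035 and 1026 CPM, 1.96-fold above control (1.91 to 2), just under the rule. VCAN, the proteoglycan versican, stood at 29.5, 98.2 and 46.0 CPM. These 3 genes lay between both other libraries. MATN2, a matrilin, was lower than in both, at 87.9, 35.6 and 17.0 CPM. Of the genes that hydroxylate, fold and cross-link collagen, 2 of 23 were higher and 2 lower (8.70% each way, near the shares of all genes), with a median of 0.00. PLOD2, a lysyl hydroxylase, stood at 104, 179 and 274 CPM (2.64-fold over control, 2.52 to 2.78), and LOX, the lysyl oxidase, at 62.9, 95.7 and 43.5 CPM. LOX overlaps SRFBP1 on the opposite strand. On the length-corrected FPKM scale the RVX-208 library had COL1A1 at 234, FN1 at 174 and COL3A1 at 0.0700, so COL1A1 was the most abundant of these genes per length and COL3A1 the least.

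Matrix proteases and their inhibitors had 8 of 37 genes higher (21.6%) and 7 lower (18.9%), with a median of 0.20. MMP2, a gelatinase, stood at 22.0 CPM in the control, 251 with TGF-β and 172 with RVX-208 (7.83-fold over control, 7.13 to 8.60). MMP1, a collagenase, stood at 74.1, 26.8 and 71.6 CPM, with a ratio to control of 0.966 (0.897 to 1.04). By counting error alone, the interval for MMP1 allowed at most 1.11-fold between the control and RVX-208 libraries. Variation between cultures was not measured. MMP9, the other gelatinase, stood at 9.63, 28.6 and 6.71 CPM, and ADAMTS5, an aggrecanase, at 4.15, 33.9 and 6.53 CPM. TIMP1, an inhibitor of these enzymes, stood at 167, 347 and 529 CPM (3.16-fold over control, 3.05 to 3.29). TIMP2, another one, stood at 652, 298 and 1313 CPM, the only gene of this list called above both other libraries. Its ratio to control of 2.01 (1.97 to 2.05) ended as a call with total-count scaling, and the gene shares exons with a neighbour. CEMIP, which degrades hyaluronan, and HAS2, which makes it, were both lower than in either other library, CEMIP at 16.0, 44.5 and 4.04 CPM and HAS2 at 7.20, 8.97 and 2.38 CPM. CEMIP overlaps MESD, an abundant gene, on the opposite strand.

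Contractile and smooth muscle genes, the markers of the myofibroblast state, had 2 of 36 higher (5.56%) and 3 lower (8.33%), with a median of 0.17. Both shares lie near those of all genes, 5.21% and 6.94%. ACTA2 (alpha-smooth muscle actin), the usual myofibroblast marker, stood at 21.5 CPM in the control, 27.0 with TGF-β and 24.6 with RVX-208, and TAGLN (transgelin) at 378, 700 and 541 CPM. Neither gene was 2-fold above control in either TGF-β library. Both overlap genes on the opposite strand, ACTA2 with FAS and ACTA2-AS1 and TAGLN with PCSK7. TPM1, a tropomyosin, stood at 602, 1720 and 1851 CPM (3.08-fold over control, 3.02 to 3.14). ACTG2, the enteric smooth muscle actin, was lower than in both other libraries, at 21, 8.29 and 3.98 CPM, and MYOCD (myocardin, a coactivator of smooth muscle genes) was near control, at 16.5, 46.6 and 18.9 CPM.

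Integrins and adhesion genes had 3 of 26 higher (11.5%) and 2 lower (7.69%), with a median of 0.38. ITGA2, a collagen receptor chain, stood at 59.6, 179 and 264 CPM (4.43-fold over control, 4.17 to 4.70). TENM2, a teneurin, stood at 22.7, 52.8 and 8.55 CPM and was below both other libraries. Of mesenchymal transcription factors and cadherins, 6 of 21 were higher (28.6%) and 0 lower, with a median of 0.36. SOX4 stood at 25.5, 116 and 138 CPM and TBX3 at 116, 343 and 453 CPM. ZEB1, FOXC2 and CDH11 were among these 6 calls, and all 3 ended with total-count scaling.

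Growth factors and their receptors had 7 of 41 genes higher and 7 lower (17.1% each way), with a median of 0.36. PDGFB, a mitogen of stellate cells, stood at 10.8, 48.4 and 37.0 CPM (3.43-fold over control, 2.96 to 3.98), while the gene of its receptor, PDGFRB, stood at 35.0, 136 and 63.3 CPM (1.81-fold, 1.65 to 1.98). Ligand and receptor therefore lay on different sides of the 2-fold rule. ANGPTL4, an inhibitor of lipoprotein lipase, stood at 1.13, 10.6 and 18.1 CPM. IGFBP5, an IGF-binding protein, stood at 167, 308 and 48.7 CPM, 3.44-fold lower than control (3.19 to 3.71) and 6.33-fold lower than TGF-β alone (5.88 to 6.81). NRG1 (neuregulin) stood at 50.2, 28.0 and 8.79 CPM, 5.71-fold lower than control (4.81 to 6.82), and BDNF was 4.81-fold lower (3.93 to 5.94). In the Notch, Wnt and YAP/TAZ list, 6 of 36 were higher (16.7%) and 5 lower (13.9%), with a median of 0.15, and DKK1, a Wnt antagonist, stood at 613, 157 and 208 CPM. AJUBA, a scaffold of the Hippo pathway that shares exons with a neighbour, was below both other levels at 325, 190 and 93.7 CPM.

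Immediate early genes and AP-1 had 7 of 38 genes higher (18.4%) and 5 lower (13.2%), with a median of 0.47. IER2, a short nuclear immediate early gene (chr19:13150415-13154908, plus strand), had 2582 counts in the control, 862 with TGF-β and 42 with RVX-208, that is 108, 39.0 and 2.49 CPM, and was 43.3-fold lower than control (32.0 to 60.3). By the bound nearest to no change, it was the lowest of the protein-coding genes with at least 10 CPM and no shared exons. Other members of the list were higher: EGR1 stood at 37.4, 104 and 158 CPM and DUSP6, a phosphatase of ERK, at 27.8, 87.9 and 143 CPM. EGR2 lay between, at 14, 796 and 180 counts, and FOSL2 was lower than control with and without RVX-208, at 402, 86.0 and 184 CPM.

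Cholesterol synthesis and uptake genes, driven by the sterol-sensing factor SREBP2, had 15 of 27 higher than control (55.6%) and 0 lower, with a median log2 ratio of 1.22. With TGF-β alone 14 of 27 were higher, 0 lower, and the median was 1.01. INSIG1, the sterol-regulated brake on SREBP, stood at 43.0, 204 and 288 CPM (6.69-fold over control, 6.25 to 7.16). HMGCS1, an early enzyme of the pathway, stood at 170, 639 and 678 CPM (3.98-fold, 3.84 to 4.13), and MSMO1, a late one, at 82.0, 291 and 377 CPM. SQLE, which oxidises squalene, stood at 81.2, 244 and 243 CPM. The levels of these genes with RVX-208 were near or above those with TGF-β alone.

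In the fatty acid and lipid storage list 5 of 25 genes were higher (20%) and 3 lower (12%), with a median of 0.27. SCD, the stearoyl-CoA desaturase, stood at 555, 2173 and 2646 CPM and FASN, the fatty acid synthase, at 279, 845 and 1108 CPM. PLIN2, a lipid droplet coat protein, was lower than in both other libraries, at 17.3, 8.11 and 3.21 CPM. Genes of the quiescent, fat-storing stellate cell had 1 of 20 higher (5%) and 6 lower (30%), with a median of -0.30. PPARG, its nuclear receptor, stood at 5.69, 1.40 and 1.19 CPM, and the higher gene was VDR, the vitamin D receptor, at 28.6, 101 and 100 CPM. Apolipoproteins, complement and coagulation genes had 3 of 23 higher (13%) and 2 lower (8.70%), with a median of -0.11. LIPG (endothelial lipase) stood at 2.64, 72.7 and 70.3 CPM, 26.7-fold above control (20.7 to 34.9), and F3 (tissue factor), which starts coagulation, at 287, 53.6 and 48.6 CPM, 5.90-fold lower (5.48 to 6.35). APOA1, the apolipoprotein gene for which RVX-208 is known in hepatocytes, had 4 counts in the control and 0 with RVX-208, too few to compare in this line.

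**Figure D2:**
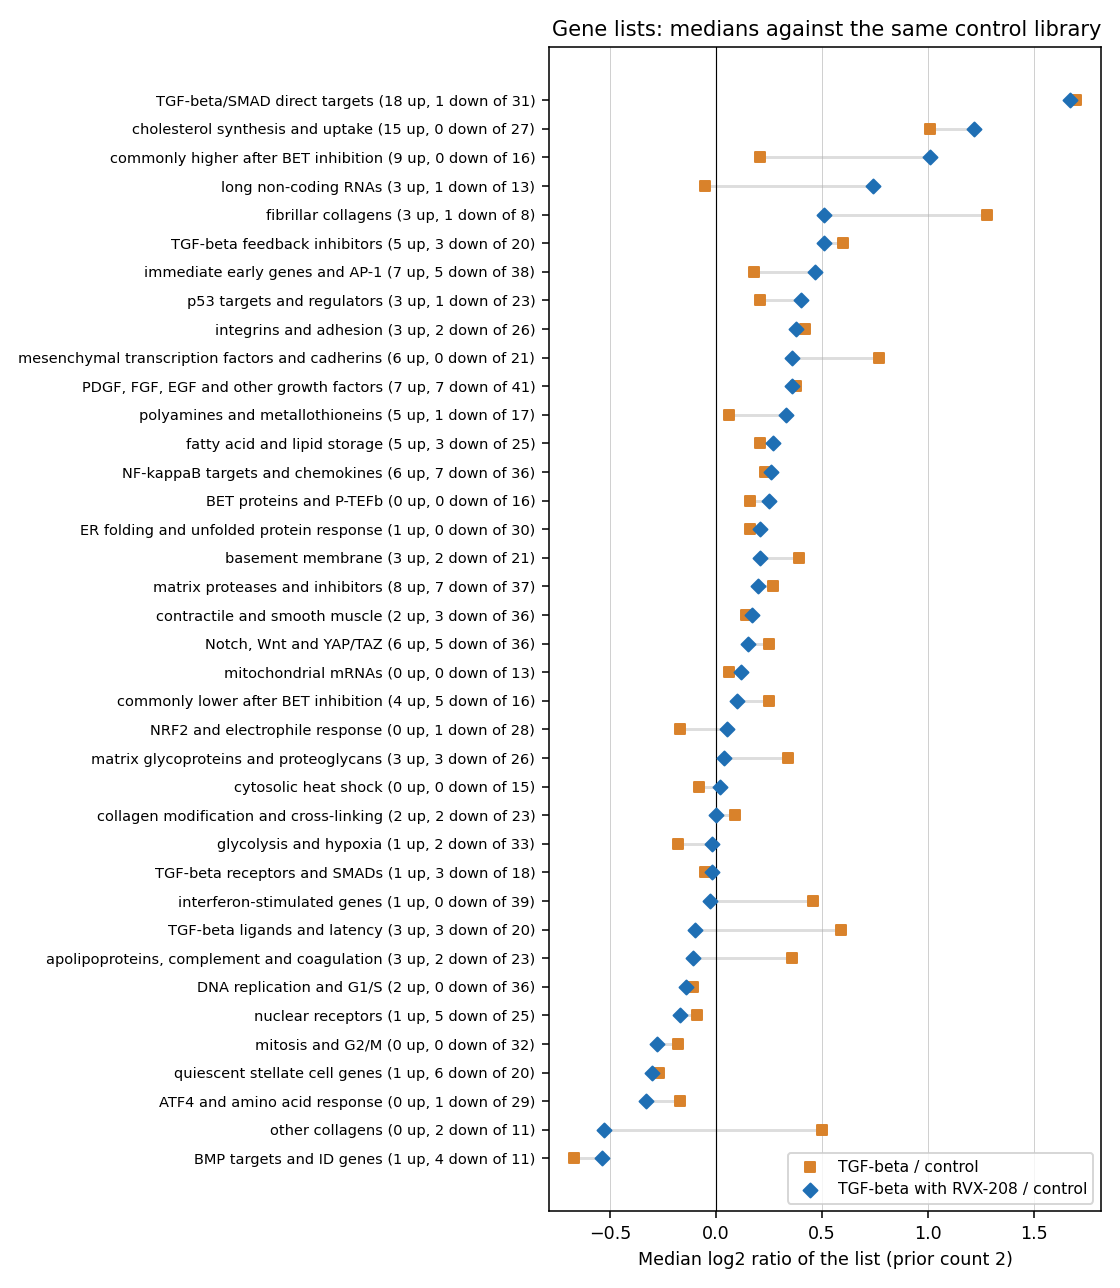
Median log2 ratio (prior count 2) of the 38 pathway lists for TGF-β over control (orange squares) and TGF-β with RVX-208 over control (blue diamonds), ordered by the latter, with the genes called higher (up) and lower (down) of those tested beside each name. Both medians use the same control library, and the symbols lie far apart for other collagens (0.50 and -0.53) and close together for direct targets (1.70 and 1.67).

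Of 16 genes usually reported as increased by BET inhibitors, many of them histone genes, 9 were higher than control (56.2%) and 0 lower, and the median log2 ratio was 1.01. TGF-β alone had 1 higher, 1 lower and a median of 0.21 against the same control. The core histone genes H2BC4 (5.23, 4.94 and 16.7 CPM) and H2BC21 (12.8, 18.5 and 38.1 CPM) were above both other levels. So was H2AC6, at 58.2, 39.6 and 120 CPM. SAT1, a polyamine-catabolising enzyme, stood at 41.8, 62.2 and 116 CPM (2.78-fold over control, 2.57 to 3.00), and SERPINI1 had 10, 3 and 21 counts. HEXIM1, the inhibitor of P-TEFb often used as a marker of BET inhibition, stood at 152, 166 and 252 CPM, 1.66-fold above control (1.59 to 1.74) and under the rule. With total-count scaling 5 of the 9 calls remained, those of H2BC12, H1-2, H2AC6 and CDKN1C having ended. Histone genes are near-identical copies of each other, so the split of reads among them is uncertain.

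Of 16 genes usually reported as reduced by BET inhibitors, 4 were higher than control (25%) and 5 lower (31.2%), and the median was 0.10. MYC, the best known of them, stood at 36.6 CPM in the control and at 16.8 and 16.9 CPM in the TGF-β and RVX-208 libraries. RUNX1, IL6 and TNFSF15 were among those higher than control, while IL7R, HAS2, NPPB, KIT and MYC were lower. TNFSF15, a TNF-family cytokine, had 17, 518 and 99 counts. The genes of the BET proteins themselves and of P-TEFb and its regulators had 0 of 16 members higher and 0 lower.

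Interferon-stimulated genes had 1 of 39 higher than control (2.56%) and 0 lower, with a median of -0.03, where TGF-β alone had 7 higher, 1 lower and a median of 0.46. RSAD2, the antiviral enzyme viperin, stood at 41.5, 91.4 and 41.0 CPM and IFI44 at 16.1, 35.1 and 17.8 CPM. The counting intervals of both ratios to control, 0.896 to 1.09 and 0.944 to 1.28, included 1. NF-kappaB targets and chemokines had 6 of 36 higher (16.7%) and 7 lower (19.4%), with a median of 0.26. LIF, a cytokine of the IL-6 family, stood at 16.0, 106 and 74.1 CPM and IL1B (interleukin 1 beta) at 30.7, 96.5 and 106 CPM. CXCL12, a chemokine that attracts lymphocytes, was below both other levels, at 35.0, 41.0 and 13.4 CPM.

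Mitosis genes had 0 of 32 called and a median of -0.28, with MKI67, the proliferation antigen Ki-67, at 630 CPM in the control and 633 with RVX-208. DNA replication and G1/S genes had 2 of 36 higher (5.56%, near the share of all genes) and 0 lower, with a median of -0.14. The higher genes were both cyclin-dependent kinase inhibitors (CDKN1A at 86.5, 108 and 177 CPM, and CDKN1C), and both calls ended with total-count scaling. Among p53 targets 3 of 23 were higher (13%) and 1 lower (4.35%), with a median of 0.40, the lower one being MDM4, at 36.0, 3.71 and 14.7 CPM. NRF2 targets had 0 of 28 higher and 1 lower (3.57%, median 0.05), ATF4 targets 0 of 29 and 1 (3.45%, median -0.33) and ER folding genes 1 of 30 (3.33%) and 0 (median 0.21). Cytosolic heat shock genes (15, median 0.02) and mitochondrial mRNAs (13, median 0.12) had 0 calls. Glycolysis and hypoxia genes had 1 of 33 higher (3.03%) and 2 lower (6.06%), with a median of -0.02. With lists of this size and background shares of 5.21% and 6.94%, these counts say nothing particular about their members. Polyamine and metallothionein genes had 5 of 17 higher (29.4%) and 1 lower (5.88%), among them the metal-binding MT2A at 1012, 2235 and 2617 CPM. Nuclear receptors had 1 of 25 higher (4%) and 5 lower (20%), and the long non-coding RNAs 3 of 13 higher (23.1%) and 1 lower (7.69%, median 0.74), of which OIP5-AS1 was no longer called once same-strand neighbours were summed.

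Genes outside both other libraries are the ones in which the RVX-208 level lay beyond both the control and the TGF-β level: 204 above and 408 below, as given above. Some of them, such as IER2 and MATN2, were also called lower with TGF-β alone, and so lay past its level in the same direction. Besides COL18A1, the leading genes above were DHRS2, a mitochondrial dehydrogenase, at 84.9 CPM in the control, 85.9 with TGF-β and 291 with RVX-208 (3.43-fold over control, 3.26 to 3.61), the histone gene H4C8 at 24.6, 33.0 and 104 CPM, and JRK at 9.04, 9.56 and 40.5 CPM. EME2, a subunit of a DNA repair nuclease, and the zinc finger gene ZNF83 were 4.22-fold (3.31 to 5.44) and 3.48-fold higher (3.04 to 3.99). EME2 had 88 and 262 counts in the control and RVX-208 libraries. It overlaps SPSB3 on the opposite strand, which had up to 442 counts in these 2. SRP9, part of the signal recognition particle, was 2.78-fold higher (2.61 to 2.96), but its copy SRP9P1 had 753 and 502 counts in the control and RVX-208 libraries, so the split of its reads is uncertain. TCF19 stood at 2.89, 0.634 and 27.3 CPM. It lies in the MHC region of chromosome 6, where alternative copies of the sequence can take reads, and so its counts are uncertain too.

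Below both, IER2, IGFBP5 and CEMIP were joined by CD274, the immune checkpoint ligand PD-L1, at 21.7, 27.5 and 5.41 CPM (4.01-fold under control, 3.21 to 5.07). TADA2B, an adaptor of the SAGA histone acetyltransferase, stood at 63.9, 53.1 and 14.6 CPM (4.38-fold, 3.82 to 5.03), and overlaps CCDC96 on the opposite strand. In both genes the control and TGF-β libraries lay within 2-fold of each other and the RVX-208 library apart from them. The potassium channel subunit gene KCNS1 (324, 169 and 25 counts), GIPC3 (256, 250 and 26) and DCDC2, a doublecortin protein of cilia (276, 284 and 31), had the same order of levels with few counts under RVX-208.

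**Figure D3:**
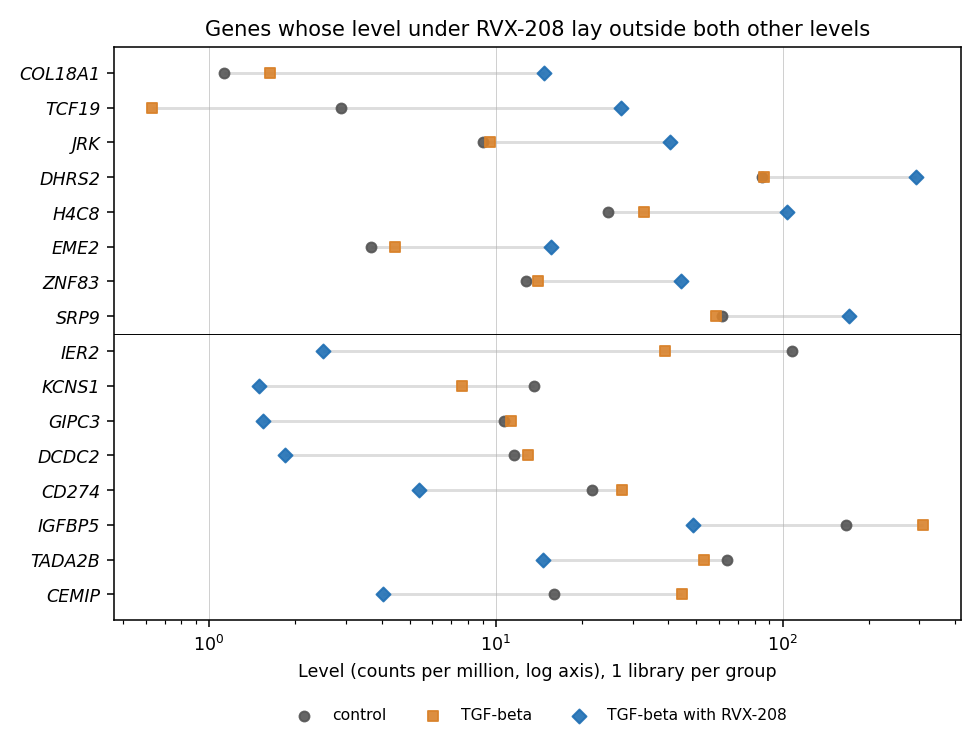
Levels in CPM (log axis) of the 8 leading genes with the RVX-208 library (blue diamonds) above the control (grey circles) and TGF-β (orange squares) libraries, over the line, and of the 8 leading genes below both, under it, 1 library per group. These genes were selected for this order, with the blue symbol at least 2-fold from both others.

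The remaining large changes kept the direction of TGF-β alone. Among the rises, HIC1, a transcriptional repressor that overlaps SMG6 on the opposite strand, stood at 8.08, 116 and 85.2 CPM, FBXO34, an F-box protein, at 7.12, 71.1 and 71.4 CPM, and PCDH1, a protocadherin, at 3.89, 34.4 and 40.2 CPM. Among the falls, MYPN, a sarcomere protein, stood at 38.8, 6.43 and 2.08 CPM (18.6-fold under control, 13.3 to 26.9), PLEKHG4 at 23.3, 4.48 and 1.13 CPM and PLAC8 at 32.5, 6.2 and 1.84 CPM. SSTR1, a somatostatin receptor, stood at 59.8, 20.9 and 7.19 CPM, and these 4 genes were at least 2-fold lower than with TGF-β alone as well. CAVIN2, a caveola coat protein, stood at 85.7, 19.4 and 12.6 CPM and RIN1, a RAS effector, at 74.7, 22.8 and 12.5 CPM, both within 2-fold of TGF-β alone. PLEKHA7, SH2D5 and PKP3 completed the 12 largest falls, at 8.78-fold, 8.14-fold and 8.74-fold under control.

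Markers of other cell types moved with these groups in part. Summed macrophage markers stood at 35.7 CPM in the control, 22.0 with TGF-β and 12.5 with RVX-208, and 2 of the 3 that passed the filter were lower than control. These were CD68 (27.9, 13.4 and 9.50 CPM), whose call ended once same-strand neighbours were summed, and CD14 (6.57, 3.03 and 1.43 CPM). The third, CSF1R, stood at 1, 5.34 and 1.60 CPM and was not called against the control. The median log2 ratio of the list moved from -1.54 to -0.21 with neighbours summed, and MARCO, AIF1 and C1QA were at 0 in the control and RVX-208 libraries. Summed cholangiocyte and epithelial markers stood at 488, 853 and 542 CPM, mostly the keratins KRT8 (201, 296 and 191 CPM) and KRT18 (230, 452 and 299 CPM). KRT7, another keratin, was the 1 called gene of the 4 tested, lower than in both other libraries at 6.99, 13.5 and 2.44 CPM, and CFTR was at 0. Every library was labelled as LX-2 cells, a single line, so these values describe marker genes in that line. Whether other cells were present was not tested.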

How the data were processed

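RNA sequencing was analysed for 4 libraries of LX-2 cells. The deposited values are raw counts of fragments per gene, and FPKM values that the authors made with StringTie 1.3.0, per the series' design text, which also names a stranded paired-end kit. The submitters' processing notes name TopHat2 2.0.6, CASAVA 1.8 and the GRCh38 build. Which program counted the reads, with which annotation and strand setting, is, for all of these, not given in the sources used here. FPKM served only to order genes within a library.

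Counts were scaled with TMM factors (edgeR 4.0.16, R 4.3.3) from genes with at least 1 CPM in any of the 4 libraries. Ratios between libraries carry 95% conditional exact (Clopper-Pearson) intervals. List medians use log2 ratios with a prior count of 2. A ratio with 0 counts on a side would be set against 3 counts. Genes tested ran down to PSMG3-AS1 (1 CPM in the control), with BICRA-AS2 (0.963 CPM) just outside. Biotypes, positions and exon overlaps were taken from GENCODE 29 (58228 of the 63241 genes matched), and genes missing from it could not be checked for overlap. Promoters came from RefSeq (GRCh38.p14), which held 24 of the 35 direct targets.

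The members and gene lists were chosen with earlier results of these data known. Named genes are the 12 largest rises and falls, the 8 leading genes each way outside both other libraries, up to 4 called members of each of 38 pathway lists and 41 genes fixed by name. The rises, the falls and the genes outside both were ranked by the end of the interval closer to 1. That ranking ran over protein-coding genes with at least 10 CPM in the higher library and no exon shared. List members were ranked by the size of the ratio itself among all called members, without these filters. Further members of the lists, and BLOC1S5-TXNDC5, were picked as examples with their values in view. The call rule was tested on simulated data. Alternatives included total counts, DESeq2 1.42.0 size factors, other filters and size rules, equal depth and summed overlapping genes. Python 3.11.15 was used with pandas 2.3.3, numpy 2.4.6, scipy 1.17.1 and, for plots, matplotlib 3.10.9. A few genes are not reported here, though they stay in the fits and in the counts of their lists.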

Additional observations from a re-analysis of the deposited data

How the results depend on the processing

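Counts are given here in the order TGF-β with RVX-208 against control (higher, lower), TGF-β against control (higher, lower), TGF-β with RVX-208 against TGF-β (higher, lower), and above and below both. With at least 5 CPM they were 462, 528, 488, 317, 206, 359, 94 and 189. With a 1.5-fold rule they were 1659, 2016, 1576, 1413, 1021, 1627, 499 and 846. With the interval bound itself past 2-fold they were 394, 473, 457, 285, 179, 282, 70 and 119. Genes higher than with TGF-β alone numbered 658 with no filter and 280 among protein-coding genes, and those above both 125 among protein-coding genes. All other counts, under total counts, DESeq2 size factors, TMM factors of the 2 libraries alone, equal depth and summed overlapping genes, stayed within 1.5 times those reported.

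List medians close to 0 changed sign. With total counts they were -0.06 for matrix glycoproteins, -0.05 for NRF2, -0.08 for heat shock and -0.01 for endothelial markers. With at least 5 CPM they were 0.51 for ligands and latency, 0.02 for receptors and SMADs and 0.06 for apolipoproteins, complement and coagulation, and with no filter -0.05 for matrix glycoproteins. With overlapping genes summed they were 0.04 for ligands and latency and 0.03 for apolipoproteins, and the log2 ratio of NRROS was 0.17. Means in place of medians were -0.01 for contractile genes, 0.13 for apolipoproteins, 0.07 for interferon-stimulated genes, -0.01 for heat shock and 0.01 for glycolysis. Among the named genes, calls of CDKN1A, CDKN1C, COL11A2, FOXC2, MIR100HG, NDRG1 and TIMP2 ended with total counts. Those of ITGA1, NRROS and OIP5-AS1 ended with overlapping genes summed. No paired analysis was possible because each group has 1 library. Depth limits genes near 3 counts, and variation between cultures could not be measured.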
